A study of Drosophila melanogaster with 18 samples.

Results

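The genes of Polycomb repressive complex 2 (PRC2) were followed by bulk RNA-seq in early Drosophila embryos. The set holds 7 genes, taken by name from the 16680 genes of the count table: E(z), esc, escl, Su(z)12, Pcl, Jarid2 and jing. The rule names the genes and holds no threshold on a measured value, although earlier results of these data were known when the set was drawn up. All 7 passed the filter on low counts, which left 8467 genes to be tested. The 6 genes other than E(z) are called partners here.

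PRC2 trimethylates histone H3 at lysine 27 (H3K27me3), the mark that keeps silenced developmental genes, such as Hox genes outside their domains, switched off. E(z) is its methyltransferase. Su(z)12 holds the core together, and Esc or its paralog Escl binds methylated lysine 27 and stimulates the enzyme. Pcl defines one form of the complex, while Jarid2 and jing, the fly counterpart of mammalian AEBP2, belong to another. In the fly, the early embryo lives on transcripts loaded by the mother, and the zygotic genome takes over around cycle 14.

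Embryos of 3 genotypes, wild type (WT), E(z) knockdown (E(z)-KD) and CBP knockdown (CBP-KD), were sampled at 2 stages, before nuclear cycle 9 and at cycle 14, with 3 biological replicates each and 18 libraries in all. WT was a control line for transgenic RNAi that carries the attP2 landing site. E(z)-KD embryos came from mothers in which the matα4-GAL-VP16 driver, active in the female germline, expressed a short hairpin RNA against E(z). CBP-KD embryos came from mothers that expressed a hairpin against the 3′UTR of nej, the gene of the acetyltransferase CBP, which acetylates the same lysine. Both hairpins were inserted at attP2, the knockdown females were crossed to their siblings, and the zygotic copies of E(z) and nej were not mutated. The knockdown acts on the maternal load, so the loss of maternal product and its later consequences cannot be told apart at cycle 14. Whether the WT mothers carried the driver is not given in the sources used here, so an effect of the driver cannot be told apart from one of either hairpin. Eggs were laid for 1 h at 25 °C, aged, and staged by hand. The labels do not describe how many embryos made up a library, and each is treated as 1 replicate.

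Library totals ran from 6243486 to 18262569 estimated counts with a median of 15496795. The lowest was WT cycle 14 replicate 1, and the next lowest cycle 14 library held 10523097. CPM values below are TMM-normalized counts scaled to a common library size, and RPKM values are CPM per kilobase of merged exons, which allows levels to be compared between genes. Both are relative to all RNA of a library, and in whole embryos fewer expressing cells and less RNA per cell cannot be told apart. Eggshell genes, which would mark follicle cells, summed to at most 1.15 CPM in every library. Of 5 muscle and neuron genes that would mark older embryos, 1 (elav) was over 1 CPM at cycle 14 in each genotype, and the values of this list by genotype stand with the other stage markers further on. The hairpin against nej left 281, 293 and 231 CPM of nej in CBP-KD before cycle 9, against 1071, 1181 and 1115 CPM in WT. At cycle 14 nej was at 657, 528 and 557 CPM in CBP-KD, against 1495, 2216 and 2169 CPM in WT.

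The catalytic subunit gene E(z) lies on chromosome 3L of dm6, at chr3L:10634575-10638130 on the minus strand, with 2665 exon bases. Before cycle 9 the 3 WT libraries had 106, 97.9 and 104 CPM of E(z). The E(z)-KD libraries had 0.0565, 0.269 and 0.221 CPM, which is 1, 4 and 4 counts. The maternal E(z) transcript was thus nearly gone in every E(z)-KD library and the groups did not overlap, with a fitted log2 fold change of -9.11 ± 0.31 (SE, n = 3 per group, edgeR adjusted p = 1.4e-12). E(z) is the target of the hairpin, so its loss checks the labels.

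At cycle 14 WT had 34.6, 31.9 and 32.8 CPM of E(z), and E(z)-KD had 3.51, 5.27 and 5.45 CPM. E(z) therefore stayed lower in E(z)-KD, with a mean of 14.3% of WT and a log2 fold change of -2.80 ± 0.20 (SE, n = 3 per group, edgeR adjusted p = 6.8e-09). Within E(z)-KD, however, E(z) rose between the stages, from 1 to 4 counts per library to 56, 91 and 77 counts, by 4.67 ± 0.45 on the log2 scale (SE, edgeR adjusted p = 5.0e-08). In WT it fell by 1.64 ± 0.16 over the same interval (SE, edgeR adjusted p = 6.2e-08). Reads of the 38 exon bases that E(z) shares with CG34001 on the opposite strand could add to these values only if strand was ignored in counting, and CG34001 had a mean of 0.826 CPM in WT at cycle 14.

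**Figure D1:**
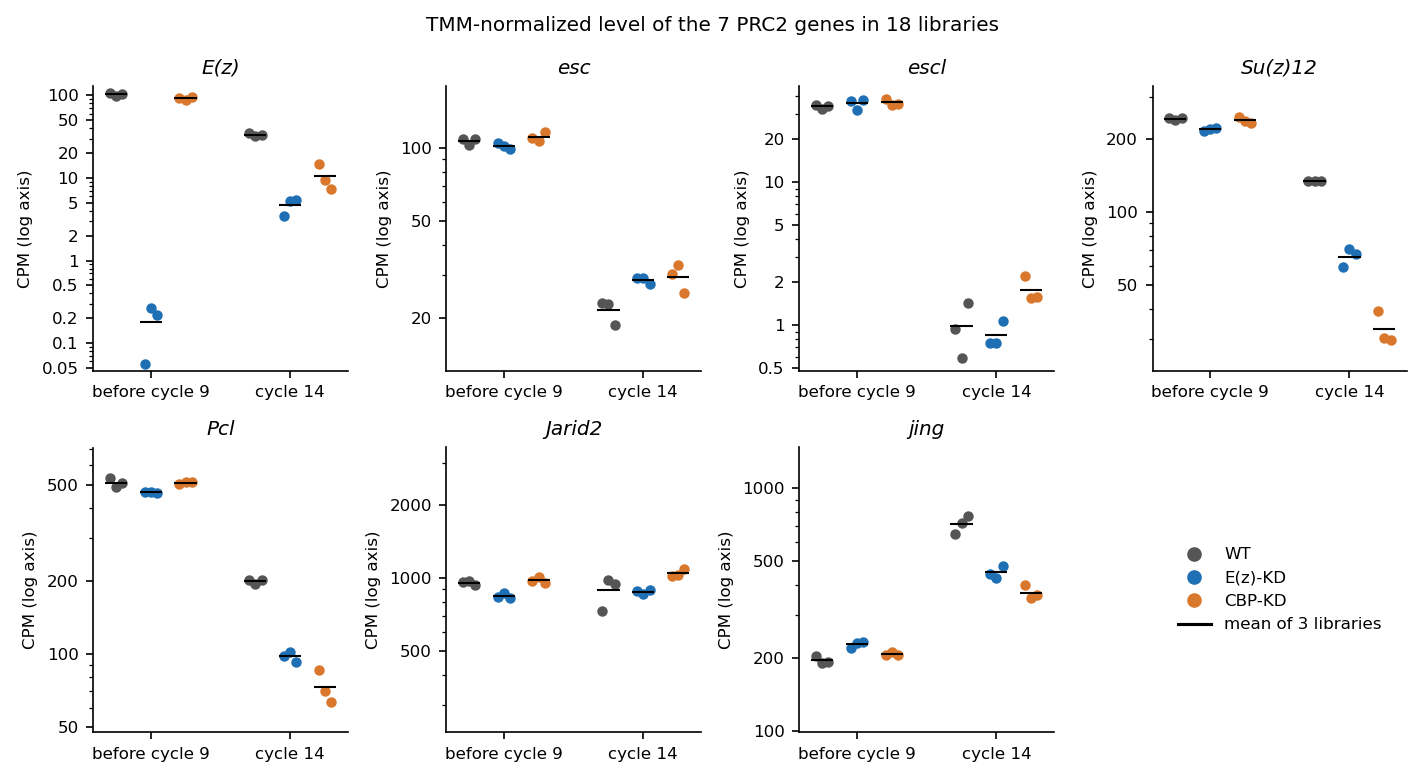
TMM-normalized level (CPM, log axis) of each of the 7 genes in the 18 libraries, by stage and genotype. Each point is 1 library and the bar is the mean of 3. E(z) drops to 0.0565 to 0.269 CPM in E(z)-KD before cycle 9, the gap of Su(z)12 and Pcl between WT and the knockdowns is wider at cycle 14 than before cycle 9, and jing is the gene that is higher at cycle 14 in all 3 genotypes.

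The question for the partners was whether they respond to the loss of E(z), and E(z)-KD was set against WT first at the stage before cycle 9, when nearly all E(z) transcript was already missing. Of the 6 partners 1 passed the test, jing, which rose, and 34.0% of all tested genes passed the same threshold (adjusted p under 0.05). At the stricter threshold of at least 2-fold, no partner passed, beside 9.54% of all genes. The transcripts of the other core subunits stayed near their WT level while that of the enzyme was lost.

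Su(z)12, at chr3L:19918242-19923462 on the minus strand, had 244, 239 and 246 CPM in WT and 217, 221 and 223 CPM in E(z)-KD before cycle 9. The 3 E(z)-KD libraries lay below the 3 WT libraries, yet the log2 fold change of -0.14 ± 0.07 (SE, n = 3 per group) did not pass (edgeR adjusted p = 0.16). Its 95% interval ran from -0.30 to 0.02. esc had 109, 103 and 109.6 CPM in WT and 106, 102 and 99.0 CPM in E(z)-KD, so the groups overlapped, and its change of -0.07 ± 0.08 (SE) had an interval from -0.24 to 0.09 (edgeR adjusted p = 0.52). escl changed by 0.07 ± 0.16 (SE), with an interval from -0.28 to 0.42 (edgeR adjusted p = 0.81). A change of the core partners by 2-fold in either direction lies outside all 3 intervals.

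Among the accessory subunits, Pcl had 532, 490.1 and 506 CPM in WT and 465, 465 and 461 CPM in E(z)-KD. All E(z)-KD values were again below all WT values, with a log2 fold change of -0.14 ± 0.07 (SE, edgeR adjusted p = 0.17). Jarid2 had 962, 973 and 934 CPM in WT against 839.5, 868 and 831 CPM in the knockdown, or -0.18 ± 0.07 on the log2 scale (SE, edgeR adjusted p = 0.082). jing, a zinc finger protein, had 204, 189.6 and 192 CPM in WT and 220.4, 229.6 and 233 CPM in E(z)-KD, and rose by 0.22 ± 0.06 on the log2 scale (SE, edgeR adjusted p = 0.012). This call was lost without WT replicate 2 of that stage (adjusted p = 0.052). When the stage was fitted on its own 9 libraries, 4 partners passed, with changes of -0.13 for Su(z)12, -0.13 for Pcl and -0.17 for Jarid2 beside jing, all far under 2-fold. The 34.0% of all genes given above belongs to the fit of all 18 libraries, and its counterpart in this fit is not given.

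At cycle 14 the partners of E(z) passed between E(z)-KD and WT about as often as all genes did, and in both directions. Of the 6 partners 4 passed, beside 64.0% of all tested genes. Su(z)12, Pcl and jing fell, as did 31.5% of all genes, and esc rose, as did 32.5%. Over all genes, 50.7% of those passing were higher, or 37.0% with DESeq2. With the 2-fold rule 2 partners passed, Su(z)12 and Pcl, beside 24.3% of all genes. The median log2 fold change of the 6 partners was -0.43, against -0.03 over all genes tested.

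Su(z)12 had 134, 135 and 135 CPM in WT at cycle 14 and 59.2, 70.6 and 66.9 CPM in E(z)-KD. Its level was thus about as far apart between genotypes as a 2-fold change, with no overlap, and it fell by 1.04 ± 0.08 on the log2 scale (SE, n = 3 per group, edgeR adjusted p = 1.0e-08). Pcl, at chr2R:18135426-18139990 on the plus strand, had 202, 194 and 201 CPM in WT and 98.4, 102 and 92.6 CPM in E(z)-KD. Pcl fell by 1.03 ± 0.08 (SE, edgeR adjusted p = 1.0e-08), so that the core gene Su(z)12 and the accessory gene Pcl changed by similar amounts. jing, at chr2R:6502006-6621792 on the plus strand, had 651, 721 and 766 CPM in WT against 443, 427 and 480.2 CPM, and fell by 0.66 ± 0.06 (SE, edgeR adjusted p = 1.4e-07).

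esc moved the other way at cycle 14. WT libraries had 22.9, 22.8 and 18.7 CPM of esc, and E(z)-KD libraries had 29.1, 29.1 and 27.4 CPM, all above WT. The rise of 0.41 ± 0.09 on the log2 scale (SE, edgeR adjusted p = 1.1e-03) became 0.23 with the size factors of DESeq2 (adjusted p = 0.041). Those size factors lower the log2 fold change of all genes by a median of 0.18 in this comparison. escl, at 6 to 15 counts per library, changed by -0.19 ± 0.27 (SE, edgeR adjusted p = 0.67). Its 95% interval, from -0.78 to 0.40, rests on an SE that can be too small at such counts. The interval cannot decide whether escl changed by the size seen for esc. Jarid2, at chr3L:9477038-9486530 on the plus strand, had 735, 983 and 949 CPM in WT and 884, 856 and 896 CPM in E(z)-KD. The low WT value came from the shallowest library, the groups overlapped, and the log2 fold change was -0.02 ± 0.08 (SE, edgeR adjusted p = 0.84). Without that library the change was -0.13 (adjusted p = 0.0083), and with DESeq2 it was -0.20 (adjusted p = 0.0085).

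Whether the effect of E(z) knockdown differed between the stages was tested directly. It did for 4 of the 6 partners, beside 41.0% of all genes. Relative to the stage before cycle 9, the effect at cycle 14 was lower for Su(z)12 by 0.90, for Pcl by 0.89 and for jing by 0.88 on the log2 scale, and higher for esc by 0.49. The differences for escl, -0.26 ± 0.31 (SE), and Jarid2, 0.16 ± 0.11 (SE), did not pass (edgeR adjusted p = 0.63 and 0.27).

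**Figure D2:**
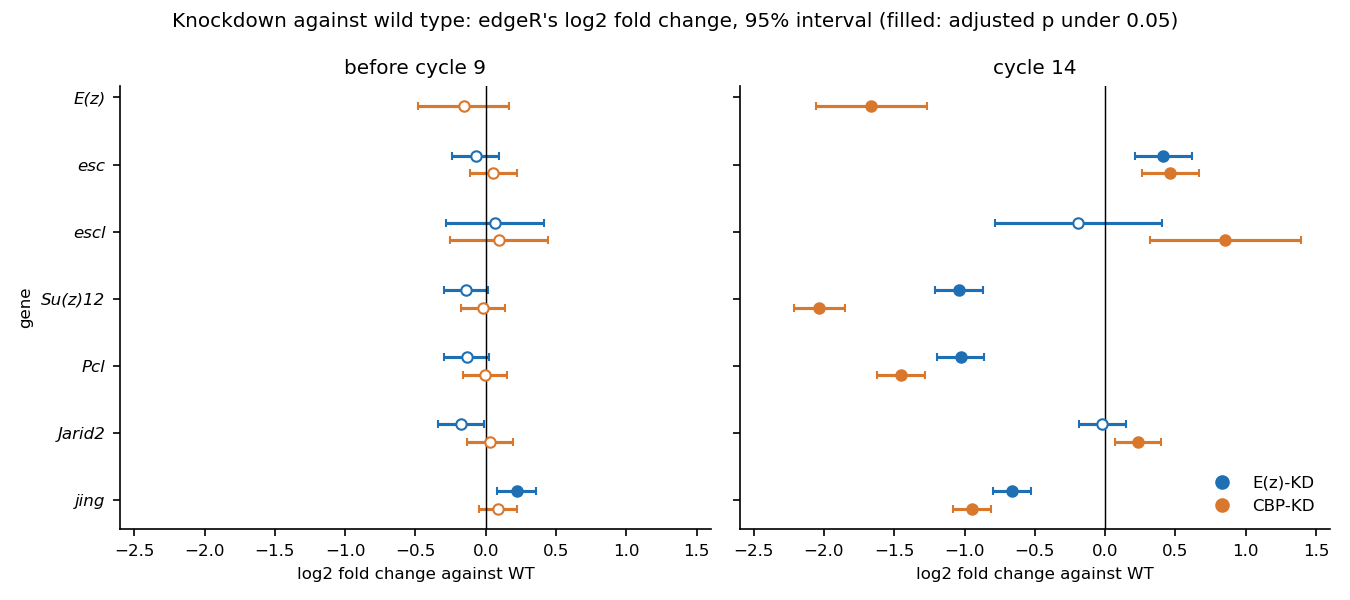
Log2 fold change against WT of each gene in E(z)-KD (blue) and CBP-KD (orange) before cycle 9 (left) and at cycle 14 (right), with 95% intervals from edgeR. Filled points passed at an adjusted p under 0.05, and E(z) in E(z)-KD, the target, is left out. The intervals of escl at cycle 14 can be too narrow at its low counts. Before cycle 9 the points lie between -0.18 and 0.22, and at cycle 14 Su(z)12, Pcl and jing lie below 0 in both knockdowns while esc lies above 0.

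CBP-KD was set beside E(z)-KD as the knockdown of an enzyme with no place in PRC2. Both comparisons use the same WT libraries, so their values are not independent, and the knockdowns are compared with each other directly further on. Before cycle 9 none of the 7 genes passed between CBP-KD and WT in edgeR, none had an unadjusted p under 0.05, and DESeq2 called none, while 31.5% of all genes passed. E(z) itself had 92.2, 87.3 and 96.6 CPM in CBP-KD, below the WT range of 97.9 to 106 CPM, with a log2 fold change of -0.16 ± 0.15 (SE, edgeR adjusted p = 0.47). Fitted on the 9 libraries of that stage alone, this became -0.23 with an adjusted p of 0.0058. The 6 partners changed by between -0.02 and 0.09. Of 10 zygotic patterning genes, 7 were higher in CBP-KD at this stage, beside 24.1% of all genes. The 10 genes summed to 8.41, 5.65 and 21.4 CPM against 0.671 to 1.25 CPM in WT. The part of this in the values of the 7 genes was not tested.

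At cycle 14 all 7 genes passed between CBP-KD and WT, beside 67.1% of all genes, with 4 lower and 3 higher. Over all genes 31.8% were lower and 35.4% higher, so 52.7% of those passing were higher, or 38.2% with DESeq2. E(z) had 14.9, 9.41 and 7.26 CPM in CBP-KD against 31.9 to 34.6 CPM in WT, a mean of 31.8% of WT, although the hairpin of this line does not target it. It fell by 1.66 ± 0.18 on the log2 scale (SE, n = 3 per group, edgeR adjusted p = 6.1e-07), and the change was -1.97 without CBP-KD replicate 1. Su(z)12 had 39.0, 30.4 and 29.8 CPM and fell by 2.03 ± 0.08 (SE, edgeR adjusted p = 7.3e-12), the largest change among the 7 genes in this comparison. Pcl had 85.8, 70.0 and 63.3 CPM and fell by 1.45 ± 0.08 (SE, edgeR adjusted p = 1.9e-10). jing had 398, 352 and 362 CPM and fell by 0.94 ± 0.06 (SE, edgeR adjusted p = 2.0e-09). The E(z), Su(z)12, Pcl and jing values were all highest in replicate 1, the CBP-KD cycle 14 library that also held the most zygotic transcript, 614 CPM over the 10 patterning genes against 361 and 373 CPM. That library also held the most nej, 657 CPM against 528 and 557 CPM. The part of either in these values was not tested.

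The 3 genes that were higher in CBP-KD at cycle 14 were esc, escl and Jarid2. esc had 30.4, 33.0 and 25.2 CPM and rose by 0.46 ± 0.09 on the log2 scale (SE, edgeR adjusted p = 3.8e-04), or by 0.29 with DESeq2 (adjusted p = 0.0090). escl had 31, 30 and 26 counts per library, or 2.19, 1.56 and 1.57 CPM, against 6, 8 and 15 counts in WT. It rose by 0.86 ± 0.25 (SE, edgeR adjusted p = 0.0062), a call that was lost in 4 of 24 alternatives, among them DESeq2 (0.70, adjusted p = 0.050) and the fit without WT replicate 2 (0.51, adjusted p = 0.21). Over the alternatives the value ran from 0.51 to 1.29, the latter without WT replicate 3. Jarid2 had 1024, 1034 and 1087 CPM and rose by 0.24 ± 0.08 (SE, edgeR adjusted p = 0.011), and this too was lost with DESeq2 (0.06, adjusted p = 0.45). Only the rise of esc among these 3 passed in both tools.

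The effect of CBP knockdown differed between the stages for 6 of the 7 genes, beside 48.1% of all genes, Jarid2 being the exception (0.20 ± 0.11, SE, edgeR adjusted p = 0.13). With DESeq2 4 of the 7 passed, and the count ran from 4 to 7 over the alternatives. The call for escl (0.76, edgeR adjusted p = 0.043) was lost in 15 of 23 alternatives. At cycle 14, the direct comparison of the knockdowns passed for 5 of the 6 partners, beside 41.2% of all genes. Su(z)12 was higher in E(z)-KD than in CBP-KD by 0.99 ± 0.08, Pcl by 0.42 ± 0.08 and jing by 0.28 ± 0.06 on the log2 scale (SE, edgeR adjusted p = 1.1e-07, 4.4e-04 and 1.9e-03). The 3 genes were thus nearer to WT in E(z)-KD than in CBP-KD. escl and Jarid2 were lower in E(z)-KD than in CBP-KD by 1.05 ± 0.23 and 0.25 ± 0.07 (SE, edgeR adjusted p = 1.8e-03 and 0.012). esc did not differ past the threshold, with a difference of -0.05 ± 0.09 (SE, 95% interval -0.24 to 0.14, edgeR adjusted p = 0.69). Before cycle 9, 1 partner passed between the knockdowns, beside 28.1% of all genes: Jarid2 was lower in E(z)-KD by 0.21 ± 0.08 (SE, edgeR adjusted p = 0.047), a call lost in 17 of the 25 alternatives.

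Stage markers also differed at cycle 14. The 10 zygotic patterning genes summed to 2437, 2469 and 2627 CPM in WT, to 1302, 1678 and 1492 CPM in E(z)-KD and to 614, 361 and 373 CPM in CBP-KD. Of these 10 genes, 8 fell in E(z)-KD and all 10 fell in CBP-KD, beside 31.5% and 31.8% of all genes. Of 8 maternal transcripts that are cleared by this stage, 7 were higher in each knockdown. Over all genes 32.5% were higher under E(z) knockdown and 35.4% under CBP knockdown. The 8 transcripts summed to 7082 to 7939 CPM in E(z)-KD and 7581 to 9079 CPM in CBP-KD, against 3240 to 3948 CPM in WT. The 5 muscle and neuron genes summed to 116 to 137 CPM in WT at cycle 14, against 24.3 to 36.3 CPM in E(z)-KD and 14.0 to 31.8 CPM in CBP-KD. The 5 pole cell genes, which mark the germline precursors, summed to 249 to 276 CPM in WT, to 587 to 665 CPM in E(z)-KD and to 633 to 763 CPM in CBP-KD. These 5 genes already summed to 3402 to 3704 CPM in WT before cycle 9, and nos is also among the 8 maternal transcripts. The list therefore cannot tell germline precursors from maternal RNA. The 2 genes listed for yolk nuclei, sisA and srp, summed to 164 to 184 CPM in WT and 137 to 171 CPM in E(z)-KD, which overlap. In CBP-KD they summed to 42.8 to 62.4 CPM. This sum is an RNA level of 2 genes and cannot give the number of yolk nuclei. The part of these lists in the changes of the PRC2 genes was not tested.

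The stage comparison within WT passed for 6 of the 7 genes, beside 87.0% of all genes, with 5 lower and 1 higher at cycle 14, beside 41.4% of all genes lower and 45.6% higher. escl changed the most, with a log2 fold change of -5.11 ± 0.22, followed by esc with -2.32 ± 0.09, E(z) with -1.64 ± 0.16, Pcl with -1.36 ± 0.08 and Su(z)12 with -0.85 ± 0.07 (SE, n = 3 per group, edgeR adjusted p at most 6.2e-08). All 5 therefore fell. jing, by contrast, rose by 1.87 ± 0.06 (SE, edgeR adjusted p = 7.0e-14). Jarid2 changed by -0.10 ± 0.08 (SE, edgeR adjusted p = 0.20). The direction for Jarid2 depended on the processing and was reversed in 4 of 24 alternatives. The change was 0.15 under DESeq2 (adjusted p = 0.049), whose size factors raise all genes by a median of 0.25 in this comparison. In 1 other alternative the fall passed (edgeR adjusted p = 0.026).

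The same stage step looked different in the knockdowns. Su(z)12 fell by 1.75 ± 0.08 in E(z)-KD and by 2.86 ± 0.08 in CBP-KD, and Pcl fell by 2.25 ± 0.08 and by 2.80 ± 0.08 (SE, edgeR). jing rose by 0.98 ± 0.06 in E(z)-KD and by 0.84 ± 0.06 in CBP-KD (SE, edgeR), less than in WT by the interaction tests given above. In each knockdown 6 of the 7 genes passed, beside 84.3% of all genes under E(z) knockdown and 83.6% under CBP knockdown.

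Levels per length put the 7 genes in an order that changed with the stage. In WT before cycle 9, Pcl with 116 ± 4.86 RPKM and Jarid2 with 113 ± 2.35 RPKM (SD, n = 3) were the highest and their libraries overlapped. esc followed with 63.0 ± 2.21, Su(z)12 with 59.3 ± 0.813, E(z) with 38.5 ± 1.57, jing with 21.0 ± 0.836 and escl with 18.6 ± 0.592 RPKM (SD, n = 3), and none of these neighbours overlapped. The core gene transcripts were thus unequal, with esc and Su(z)12 above E(z).

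In WT at cycle 14 the order was Jarid2 with 105 ± 15.9, jing with 76.5 ± 6.23, Pcl with 45.4 ± 0.941 and Su(z)12 with 32.9 ± 0.0629 RPKM (SD, n = 3), all without overlap. esc with 12.6 ± 1.42 RPKM and E(z) with 12.4 ± 0.521 RPKM (SD, n = 3) overlapped, and escl was last with 0.548 ± 0.236 RPKM (SD, n = 3). The accessory genes Jarid2 and jing were then the most abundant of the set. In E(z)-KD at that stage Su(z)12 was at 16.003 ± 1.42 RPKM and overlapped esc at 16.7 ± 0.570, and in CBP-KD Su(z)12 at 8.07 ± 1.26 lay below esc at 17.3 ± 2.34 RPKM (SD, n = 3). E(z) was at 1.78 ± 0.403 RPKM in E(z)-KD and 3.95 ± 1.48 RPKM in CBP-KD (SD, n = 3), above escl only.

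**Figure D3:**
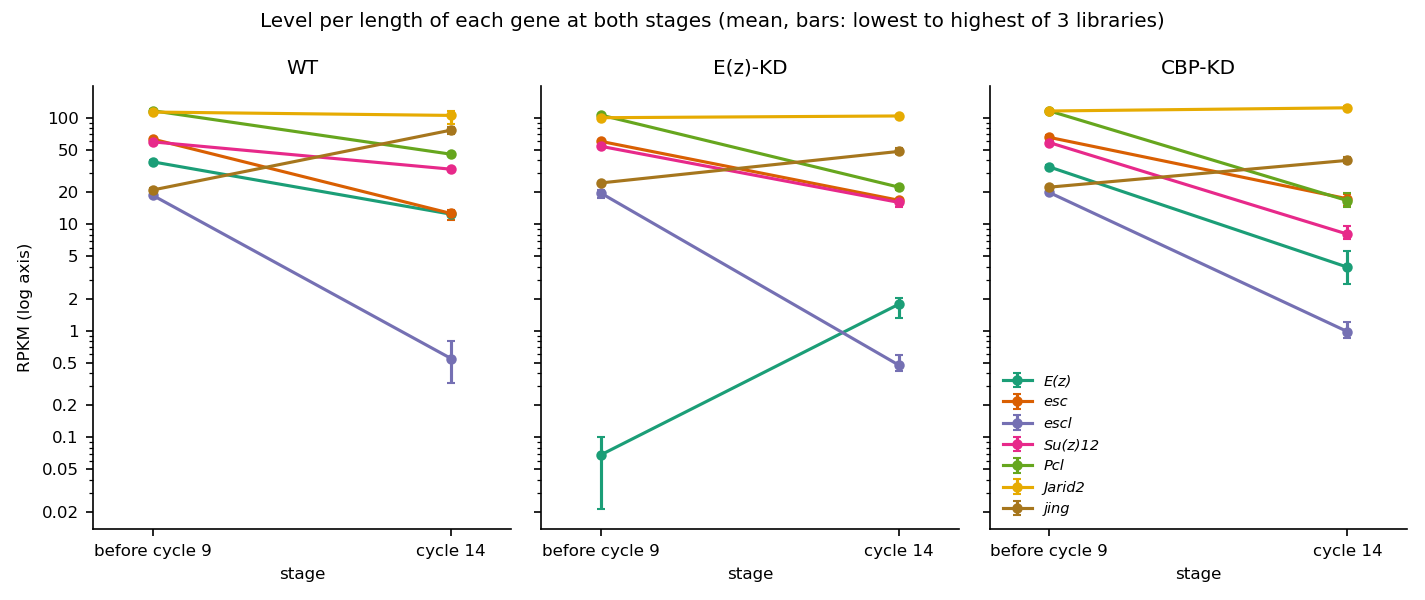
Level per length (RPKM, log axis) of the 7 genes before cycle 9 and at cycle 14, with a panel for each genotype. Points are means of 3 libraries and bars run from the lowest to the highest. The means of Jarid2 stay between 99.97 and 124 RPKM, and those of escl drop to below 1 RPKM in all 3 genotypes. The E(z) line rises only in E(z)-KD.

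The paralogs esc and escl were compared in detail. In the fly, esc is known for its role early in embryogenesis, and escl can stand in for it later. Both genes lie on chromosome 2L, esc at chr2L:11827204-11829405 on the minus strand, inside an intron of Pde1c, and escl at chr2L:11990927-11992848 on the plus strand, with 161521 bases between them. esc has 4 merged exons with 1704 bases and escl 3 with 1809 bases. escl shares 53 exon bases (2.93%) with dgt2 on the same strand, and its deposited count was not a whole number in any of the 18 libraries, so part of the reads may have been divided between these genes. dgt2 had a mean of 13.2 CPM in WT before cycle 9 and 2.25 CPM at cycle 14, at the latter stage more than the 0.991 CPM of escl.

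Both paralogs were present as maternal transcripts, with esc ahead. In WT before cycle 9 esc had 64.1, 60.4 and 64.3 RPKM and escl had 19.1, 17.96 and 18.8 RPKM. The ratio of esc to escl was 3.36, 3.36 and 3.41, so the 3 libraries hardly differed, and escl made up 22.8% ± 0.154 (SD, n = 3) of their summed RPKM. At cycle 14 esc had 13.4, 13.4 and 10.98 RPKM, and escl had 0.524, 0.325 and 0.795 RPKM. The ratio widened to 25.7, 41.3 and 13.8, and the share of escl dropped to 4.29% ± 2.24 (SD, n = 3), a value that rests on 6, 8 and 15 counts.

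The log2 ratio thus differed by 2.86 between the stages in WT, and every cycle 14 library was above every earlier one. By an exact permutation test (two-sided) p was 0.1, which is as low as 3 libraries a group can reach (adjusted p = 0.5 over 5 comparisons). The ratio within a library does not depend on the scaling of libraries. The summed level of both paralogs fell from 81.6 ± 2.79 to 13.2 ± 1.21 RPKM (SD, n = 3).

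The ratio in each knockdown overlapped that in WT at both stages. Before cycle 9 the E(z)-KD libraries had ratios of 3.07, 3.38 and 2.80, and the CBP-KD libraries had 3.06, 3.29 and 3.55. The differences in log2 ratio from WT were -0.14 and -0.04 (exact permutation p = 0.3 and 0.7, two-sided). At cycle 14 the E(z)-KD libraries had 41.0, 41.1 and 27.4, and the CBP-KD libraries had 14.7, 22.5 and 16.99, both overlapping the WT range of 13.8 to 41.3. The differences in log2 ratio from WT were 0.55 and -0.46 (exact permutation p = 0.4 and 0.5, two-sided). No comparison of the ratio passed, and with 3 libraries in a group none could. At cycle 14 the pair summed to 17.2 ± 0.472 RPKM under E(z) knockdown and 18.3 ± 2.38 RPKM under CBP knockdown, against 13.2 ± 1.21 RPKM in WT (SD, n = 3).

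**Figure D4:**
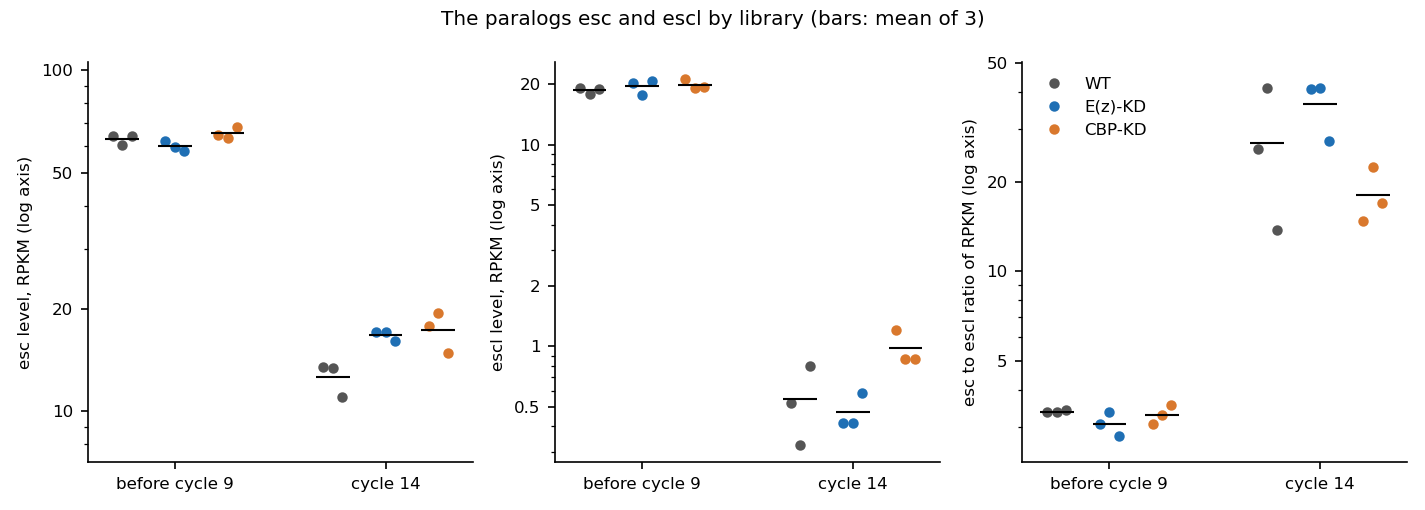
Level of esc (left) and of escl (middle) in RPKM, and their ratio (right), in each of the 18 libraries on log axes, with bars at the mean of 3. The ratio runs from 2.80 to 3.55 at the earlier stage and from 13.8 to 41.3 at the later one.

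The remaining core subunit, Caf1-55 (named Caf1 in the table), is a histone-binding protein that PRC2 shares with other chromatin complexes, and it served as a comparison. Its level was 299.9, 285 and 282 CPM in WT before cycle 9 and 324, 310.2 and 310.4 CPM in E(z)-KD, a log2 difference of 0.12 (edgeR adjusted p = 0.038). At cycle 14 Caf1-55 was higher in E(z)-KD by 0.14 and in CBP-KD by 0.14 (edgeR adjusted p = 0.0099 and 0.0087). Its largest change against WT was in CBP-KD before cycle 9, where it was higher by 0.25 (edgeR adjusted p = 3.3e-04). The median over all genes in that comparison was 0.09, and leaving out the TMM factors shifted all genes by a median of -0.11. Between the stages Caf1-55 rose more, by 0.59 in WT, 0.60 under E(z) knockdown and 0.48 under CBP knockdown. At cycle 14 the direction of Caf1-55 against WT was opposite to that of Su(z)12.

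Beyond the 7 members, 14 further Polycomb genes (Caf1-55 included) were all tested. In E(z)-KD 5 were higher and 3 lower before cycle 9, beside 18.5% of all genes higher and 15.5% lower. At cycle 14, 3 were higher and 9 lower, beside 32.5% and 31.5%. In CBP-KD 5 were higher and 2 lower before cycle 9, beside 24.1% of all genes higher and 7.42% lower. Of all genes passing there, 76.5% were higher, or 52.7% with no TMM factors. At cycle 14, 3 were higher and 8 lower, beside 35.4% and 31.8%. The 6 genes of PRC1, the complex that reads H3K27me3 and ubiquitinates histone H2A, had 4 higher and 1 lower in E(z)-KD before cycle 9 and 1 higher and 5 lower at cycle 14, to be read beside the same shares of all genes. The median log2 fold change of the 14 genes in E(z)-KD was 0.04 before cycle 9 and -0.29 at cycle 14, against -0.00069 and -0.03 over all genes.

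The PRC1 subunit gene ph-p had the largest drop of the 14 in E(z)-KD at cycle 14, from a mean of 259 to 64.1 CPM (log2 fold change -2.01, edgeR adjusted p = 1.4e-09), followed by calypso, the deubiquitinase of the PR-DUB complex, with -1.39 (edgeR adjusted p = 6.9e-07). Sce, the ubiquitin ligase of PRC1, rose by 0.78 before cycle 9 and by 0.61 at cycle 14 (edgeR adjusted p = 3.9e-10 and 4.1e-09). Utx, the demethylase that removes the mark PRC2 makes, fell by 0.24 before cycle 9 and by 0.35 at cycle 14 (edgeR adjusted p = 0.0028 and 3.5e-05). These cycle 14 directions were shared with CBP-KD. There ph-p had 29.9, 20.0 and 18.8 CPM and calypso 5.09, 2.81 and 2.96 CPM, below every E(z)-KD library. Sce had 82.5, 82.9 and 84.8 CPM against 61.2, 62.1 and 64.1 CPM in WT, and Utx 278, 243 and 255 CPM against 312, 297 and 319 CPM. Before cycle 9 Sce was also above WT in CBP-KD, while Utx overlapped WT.

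The genes most alike to 4 of the members were taken by Pearson's r of log2 CPM over the 6 group means, among 6648 genes with at least 5 CPM, as a description. For E(z) these were CG4751 (r = 0.952), CG3436 (0.949) and Nup75 (0.928). The means for E(z) include those of E(z)-KD, where the hairpin removed the transcript, so this likeness reflects the knockdown as well. For Su(z)12 they were foi, lawc and CG13827 (all 0.999), and Pcl reached 0.978. For esc they were Rbf, ttk and Ahcy13, and for escl Aats-arg, CG5414 and CG12948 (all rounding to 1.00), while esc and escl had r = 0.990 with each other. The 6 means share libraries of 2 very different stages, so values of r near 1 are common.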

How the data were processed

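Total RNA of hand-staged embryos was depleted of ribosomal RNA and made into stranded libraries. The labels call the molecule nuclear RNA. The authors mapped reads to dm6 with STAR in two-pass mode, keeping multimapping reads, and deposited an estimated count per gene and library without normalization. The counter and annotation are not given in the sources used here. The design had assumed whole counts: 2.90% of values lay over 0.01 from a whole number, and all were rounded. Groups came from the labels. Lengths and coordinates are from Ensembl 115 (BDGP6.54, dm6). In R 4.3.3, TMM factors, filterByExpr and the quasi-likelihood F test of edgeR 4.0.16 (limma 3.58.1) were applied to these counts, with 1 mean for each of 6 groups and 12 residual degrees of freedom, and Benjamini-Hochberg adjustment over 8467 genes. Genes passed at an adjusted p under 0.05, and a stricter rule adds a 2-fold change. SE was obtained from the log2 fold change and the F statistic. It can be too small at low counts, as for escl at cycle 14 and E(z) in E(z)-KD before cycle 9, and the intervals with it. Ratios were tested by exact permutation. Counts of 6720 genes were simulated for E(z)-KD against WT before cycle 9, with 200 genes changed. Of these, 96% of 3-fold and 86% of 1.5-fold changes were recovered, and 12 unchanged genes were called. Changes under 1.5-fold, like those of the partners at that stage, were not simulated. Nor was a setting where as many genes differ as in the data, where 34.0% passed. Intervals cover the spread between libraries. Replicate libraries differed beyond sampling noise (chi-square per gene 3.12 to 18.96). Alternatives were DESeq2 1.42.0, no TMM factors, other filters, other sample sets, a replicate block and each library left out. The named genes are the 7 members, the 14 listed Polycomb genes, genes overlapping a member and the 3 most alike to each of E(z), Su(z)12, esc and escl. The members and lists were chosen with earlier results of these data known.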

Additional observations from a re-analysis of the deposited data

Results flagged for a closer look

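For 10 values, the effect of a knockdown differed between the 2 stages by the interaction test in edgeR, with the effect at cycle 14 minus that before cycle 9 given on the log2 scale. In E(z)-KD these were esc with 0.49, Su(z)12 with -0.90, Pcl with -0.89 and jing with -0.88. In CBP-KD these were E(z) with -1.51, esc with 0.41, escl with 0.76, Su(z)12 with -2.01, Pcl with -1.45 and jing with -1.03. The value of escl in CBP-KD was the weakest of the 10 (adjusted p = 0.043). Its call was lost in 15 of 23 alternatives, and its value ran from 0.42 without WT cycle 14 replicate 2 (adjusted p = 0.37) to 1.197 without WT cycle 14 replicate 3. The value of esc in CBP-KD was 0.29 with DESeq2 (adjusted p = 0.057).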

How the results depend on the processing

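At cycle 14, the falls of E(z), Su(z)12, Pcl and jing and the rise of esc in both knockdowns kept their direction and passed under every other normalization, filter, sample set, block and left-out library, 25 alternatives for each gene but 24 for E(z), which the filter of at least 10 counts in every library removed. With the 2-fold rule 0 partners passed for E(z)-KD before cycle 9 and 2 at cycle 14, beside 9.54% and 24.3% of all genes. For the stage difference of that effect 0 partners passed, beside 14.7%. For CBP-KD at cycle 14 the count was 3 of the members, beside 27.2%. Between the knockdowns 0 partners passed before cycle 9 and 1 at cycle 14, beside 8.67% and 15.4%. The count for E(z)-KD before cycle 9 (1 of 6) became 2 with DESeq2, with no TMM factors and with at least 10 counts in every library, 4 with the stage on its own or only the groups compared, and 0 to 3 when a library was left out. The count for CBP-KD before cycle 9 (0 of 7) became 2 with the stage on its own and 1 with only the groups compared. Between the knockdowns before cycle 9 (1 of 6) it became 2 with the stage on its own or only the groups compared, 0 with no filter and with at least 10 counts, and 0 to 2 when a library was left out. The cause of these shifts was not tested. The shares of all genes passing belong to the edgeR fit of all 18 libraries and not to these alternatives.

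Sign changes were among values near 0, of which 1 passed. For CBP-KD before cycle 9, esc became -0.056, escl -0.0198, jing -0.024 and Jarid2 -0.079 with no TMM factors, esc -0.022 and Jarid2 -0.044 with the stage on its own, esc -0.0204 and Jarid2 -0.042 with only the groups compared, Jarid2 -0.018 with DESeq2 and -0.017 with at least 10 counts, and Pcl 0.0013 with no filter and -0.0304 to 0.029 with a library left out. Between the stages in WT, Jarid2 became 0.15 with DESeq2 (the one that passed), 0.055 with at least 10 counts, 0.045 with only the groups compared, and -0.19 to 0.0078 with a library left out. For E(z)-KD at cycle 14, Jarid2 became 0.023 with no filter and -0.13 to 0.068 with a library left out, and escl -0.53 to 0.25. The stage difference of escl in E(z)-KD ran from -0.60 to 0.18, the difference of esc between the knockdowns at cycle 14 from -0.15 to 0.043, and the log2 ratio of esc to escl for CBP-KD before cycle 9 from -0.0898 to 0.016.

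The replicate numbers pair nothing in the labels. The correlation of same-numbered deviations was at most 0.123 on average for any 2 groups, no 2 groups had every pair over 0.1, and a library correlated best with its own number in 29 of 90 pairings with another group. With the replicate number as a block, the count between the knockdowns before cycle 9 became 0, and no other count changed, with 1 partner for E(z)-KD before cycle 9 and 4 at cycle 14. Scaling by spike-in totals was planned and was not run. escl is limited by 6 to 31 counts per library at cycle 14.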
